A study of Mus musculus with 12 samples.

Results

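The genes described here are Igj, Igh-6, Cd79a and Pou2af1, 4 genes of B cells and of the plasma cells that B cells become. They were chosen by their names, after earlier results of these arrays at 72 h of fasting were known, so that the 72 h values of the members are given as a description and without a test. On the arrays 3 probes of 20280 carried one of these names, 1 each for Igj, Igh-6 and Pou2af1, where the files held 18116 distinct gene names in all. No probe was named Cd79a, but the probe filed as Iga carried the gene number that the RefSeq annotation of GRCm38.p6 gives to Cd79a, and it is described as Cd79a, which makes 4 probes of 4 genes.

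RNA was measured in the small intestine of 6-week-old male FVB mice that were fed or had been without chow for 12, 24 or 72 h, on 12 2-colour Agilent arrays, 3 per time point. On every array, RNA pooled from 2 mice (Cy3) was hybridised together with a common reference from 6 fed mice (Cy5), although the source label of fed replicate 3 names only mice 5-6 for its reference. The fasted mice were kept in metabolic cages and, from 24 h onwards, under an infrared lamp, and the whole wall of the intestine was extracted, so that every value is a sum over all of its cells. In such bulk RNA, fewer cells of a type and less RNA per cell cannot be told apart.

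Plasma cells of the gut wall secrete IgA, which is assembled as a polymer by the joining chain, the product of Igj, and is carried by the epithelium into the lumen. Igh-6 encodes the heavy chain of IgM, which naive B cells carry as a receptor together with the signalling chains Cd79a and Cd79b. Pou2af1 encodes a coactivator that binds Oct factors at the octamer sequence of immunoglobulin promoters. Once a B cell becomes a plasma cell it enlarges its endoplasmic reticulum, where antibody chains are folded and joined.

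The promoters of Igj, Cd79a and Pou2af1 are shown because these 3 genes, all used by the B cell lineage, changed by unequal amounts. The windows hold 250 bases before and 50 bases after the annotated start, from RefSeq (GRCm38.p6), on the strand of the gene. Igj lies at chr5:88527848-88528147 on the minus strand, Cd79a at chr7:24897247-24897546 on the plus strand, and Pou2af1 at chr9:51213440-51213739 on the plus strand. The sequences are given 5′ to 3′ with any motif found in capitals.
Igj: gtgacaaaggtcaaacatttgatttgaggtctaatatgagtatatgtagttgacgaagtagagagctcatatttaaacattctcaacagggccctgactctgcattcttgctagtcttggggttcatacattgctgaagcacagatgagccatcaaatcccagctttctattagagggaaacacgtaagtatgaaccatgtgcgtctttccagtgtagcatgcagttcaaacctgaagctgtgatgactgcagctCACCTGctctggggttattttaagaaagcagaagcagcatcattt
Cd79a: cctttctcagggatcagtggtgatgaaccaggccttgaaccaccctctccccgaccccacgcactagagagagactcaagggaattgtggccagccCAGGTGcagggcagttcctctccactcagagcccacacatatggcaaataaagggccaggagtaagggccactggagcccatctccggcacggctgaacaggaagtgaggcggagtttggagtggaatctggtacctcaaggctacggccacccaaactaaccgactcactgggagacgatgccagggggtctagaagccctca
Pou2af1: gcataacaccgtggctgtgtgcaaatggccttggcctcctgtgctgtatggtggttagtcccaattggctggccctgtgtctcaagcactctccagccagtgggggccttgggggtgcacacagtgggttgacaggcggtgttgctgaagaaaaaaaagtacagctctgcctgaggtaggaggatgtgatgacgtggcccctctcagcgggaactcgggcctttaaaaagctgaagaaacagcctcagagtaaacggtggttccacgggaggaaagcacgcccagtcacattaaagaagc
The following motifs of B cell promoters were searched on both strands, and no matches overlapped. The octamer ATGCAAAT was found in none of the 3 windows, and in 1.74% of the 32851 promoters of the table. The heptamer CTCATGA was also found in none, against 2.67% of all promoters. The E-box CAGGTG was found in the Igj window, on the other strand and 5 bases after the start, and in the Cd79a window, 154 bases before the start, against 20.2% of all promoters. A match is a description of the letters only.

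Igj was far lower at 72 h of fasting than in the fed intestine. At 24 h its ratio to the reference was lower by a small amount, a call that was not made on the Cy3 channel alone. The unit used throughout is the log2 ratio of Cy3 over Cy5, in which 0 is the level of the fed reference. The Igj ratio was -0.28, -0.60 and 0.02 in the 3 fed pools, -0.24, -0.73 and -1.08 after 12 h, -1.43, -0.98 and -0.82 after 24 h, and -3.71, -3.26 and -3.46 after 72 h. The 12 h pools overlapped the fed pools, the 24 h pools lay below all fed pools, and the 72 h pools lay far below all others. Of all probes, 20.2% had their 3 pools at 72 h below all fed pools, 19.8% at 24 h and 15.4% at 12 h.

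At 12 h the Igj ratio was 1.31-fold lower than in fed intestine and did not pass the test (log2 -0.40 ± 0.24, SE, n = 3 pools per group, limma, adjusted p = 0.283). At 24 h it was 1.73-fold lower and passed narrowly (log2 -0.79 ± 0.24, adjusted p = 0.0479), and 6.30% of all probes were called lower in that comparison. This call was lost when any of 10 of the 12 arrays was left out, that is, all but 12 h replicates 1 and 3, with changes between -0.95 and -0.61. The 24 h and 12 h pools differed by -0.39 ± 0.24 (adjusted p = 0.358), with 1.67% of probes called lower. At 72 h the ratio was 9.12-fold below fed (log2 -3.19 ± 0.24) and 5.28-fold below the 24 h pools (log2 -2.40 ± 0.24).

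**Figure D1:**
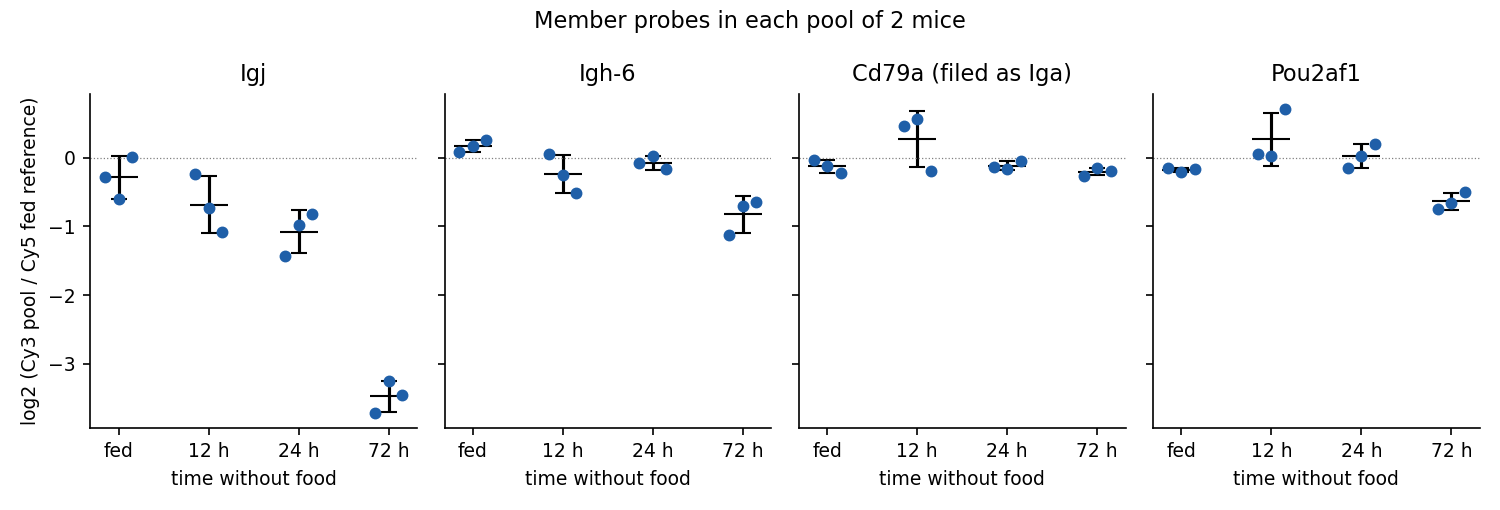
Log2 ratio of the Cy3 signal of each pool of 2 mice over the Cy5 fed reference (vertical axis) for the 4 member probes, by time without food. Points are the 3 pools of a group, horizontal bars their mean and whiskers the SD. The Igj pools at 72 h lie between -3.71 and -3.26, while no pool of the other 3 genes lies below -1.13.

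Igh-6 had lower ratios than fed at every time point, with the lowest values at 72 h. The ratio was 0.08, 0.17 and 0.26 in the fed pools, 0.05, -0.25 and -0.51 after 12 h, -0.08, 0.02 and -0.17 after 24 h, and -1.13, -0.70 and -0.65 after 72 h. The pools of each fasted group lay below all fed pools. The same held for 15.4%, 19.8% and 20.2% of all probes at 12, 24 and 72 h. In Cy3 alone the 12 h pools of Igh-6 overlapped the fed pools. The 72 h pools also lay below all pools at 12 and 24 h, a position whose share over all probes was not counted. The difference from fed was -0.40 ± 0.18 at 12 h (adjusted p = 0.152) and -0.24 ± 0.18 at 24 h (adjusted p = 0.401), and neither passed the test. Without 12 h replicate 1, the 12 h change was -0.55 and passed (adjusted p = 0.0442). At 72 h the ratio was 1.99-fold below fed (log2 -0.99 ± 0.18) and 1.68-fold below 24 h (log2 -0.75 ± 0.18).

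Pou2af1 was measured near the lower end of the range, with Cy3 intensities of 143 to 267.5 over backgrounds of 38 to 73, and was not well above background in Cy3 on fed replicate 2 and in Cy5 on 12 h replicate 1. Its ratio was -0.15, -0.20 and -0.16 in the fed pools, 0.06, 0.03 and 0.72 after 12 h, -0.15, 0.03 and 0.21 after 24 h, and -0.74, -0.66 and -0.50 after 72 h. The 12 h pools lay above all fed pools and the 72 h pools below them. At 24 h the lowest pool (-0.1476) lay only just above the highest fed pool (-0.1525). In Cy3 alone the 12 h and 24 h pools overlapped the fed pools. The share of all probes whose pools lay above all fed pools was not counted, so nothing is read from these positions. The differences of 0.44 ± 0.19 at 12 h (adjusted p = 0.136) and 0.20 ± 0.19 at 24 h (adjusted p = 0.517) did not pass the test. At 72 h the ratio was 1.38-fold below fed (log2 -0.46 ± 0.19) and 1.58-fold below 24 h (log2 -0.66 ± 0.19).

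Cd79a, the signalling chain that all B cells carry with their receptor, did not follow Igj. Its ratio was -0.03, -0.12 and -0.21 in the fed pools, 0.47, 0.56 and -0.19 after 12 h, -0.13, -0.17 and -0.05 after 24 h, and -0.26, -0.15 and -0.20 after 72 h. The 72 h pools overlapped the fed pools, and at 12 h replicates 1 and 2 were higher than every other pool. The change was 0.40 ± 0.18 at 12 h (adjusted p = 0.164), 0.01 ± 0.18 at 24 h (adjusted p = 0.987) and -0.08 ± 0.18 at 72 h. Without 12 h replicate 3 the 12 h change was 0.63 and passed (adjusted p = 0.0194).

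In all, 1 of the 4 member probes was called lower by limma at 24 h and none at 12 h, where 6.00% of all probes were called lower. At an unadjusted p under 0.05 the 12 h comparison held 1 lower member, Igh-6, and 2 higher ones, where 15.8% of all probes were lower and 13.4% higher. The 72 h comparison, in which 5.71% of all probes were called lower, and the comparison of 72 with 24 h, in which 4.67% were, rest on the 72 h pools that bore on the choice of the genes, and nothing is read from the members' places in them. The 3 comparisons with fed share the same 3 fed pools.

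The ratio mixes the pool with the reference, so both channels were read separately. The reference signal of Igj was not level: its log2 Cy5 signal was 0.47 ± 0.15 higher on the 12 h arrays than on the fed arrays (adjusted p = 0.0358) and 0.38 ± 0.15 higher on the 24 h arrays (adjusted p = 0.0822), where 21.7% and 20.6% of all probes differed in Cy5. In Cy3 alone, Igj differed from fed by 0.08 ± 0.21 at 12 h (adjusted p = 0.85) and by -0.41 ± 0.21 at 24 h (adjusted p = 0.166). Neither passed the test, so the 24 h call on the ratio was not made on the Cy3 channel. At 72 h the Cy3 signal was 7.10-fold below fed (log2 -2.83 ± 0.21), while Cy5 was 0.36 ± 0.15 above it.

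For Igh-6 the Cy5 reference was 0.72 ± 0.20 higher on the 12 h arrays (adjusted p = 0.024) and the Cy3 signal 0.32 ± 0.18 higher (adjusted p = 0.247), so the lower 12 h ratio was accompanied by a brighter reference and not by a dimmer pool. At 24 h the Cy3 difference was -0.47 ± 0.18 (adjusted p = 0.0655) and at 72 h -0.80 ± 0.18. In Pou2af1 the 12 h pools were higher by 0.12 ± 0.20 in Cy3 and differed by -0.32 ± 0.16 in Cy5, and at 72 h the Cy3 difference was -0.39 ± 0.20. For Cd79a, Cy3 differed from fed by 0.07, -0.06 and -0.08 at 12, 24 and 72 h, each with an SE of 0.16. The part of the reference in the 12 h and 24 h differences was not tested beyond these values.

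**Figure D2:**
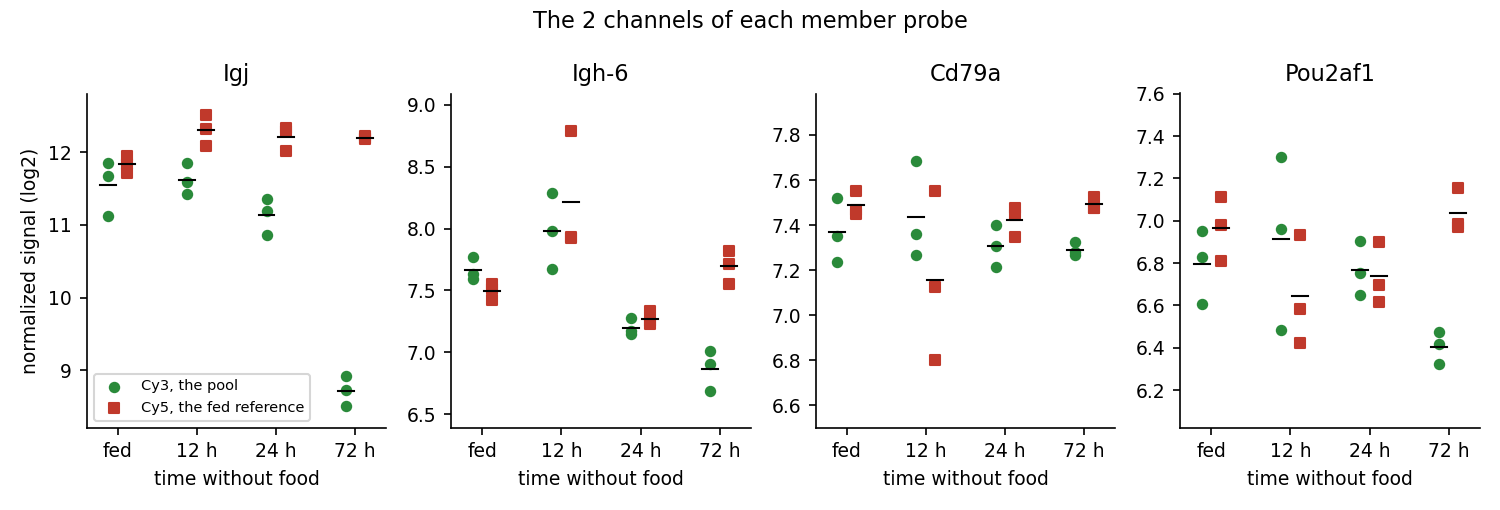
Normalized log2 signal (vertical axis, scaled separately for each gene) of the Cy3 pool (green circles) and the Cy5 fed reference (red squares) on each of the 12 arrays, by time without food, with black bars at the means of 3 arrays. For Igj the pool's signal lies between 8.51 and 8.92 at 72 h and between 11.12 and 11.86 when fed, while the reference stays between 11.72 and 12.51 throughout.

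The scanned, unnormalized intensities of Igj showed the same order at 72 h. In Cy3 they were 8479, 3540 and 7880 in the fed pools and 441, 508.5 and 897 in the 72 h pools, over backgrounds of 40 to 51. The reference on the same arrays read 4639, 3394 and 4389 (fed arrays) and 4991.5, 4263 and 4095 (72 h arrays). The 12 h and 24 h pools read between 1252.5 and 2238, but their arrays were scanned with references of 5983.5 to 7814.5, so these values are not on the scale of the other arrays. No member spot was saturated or marked as an outlier on any array.

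Within each array, the Igj ratio lay further below those of the other members at 72 h than in fed pools. The Igj ratio minus the Igh-6 ratio was -0.46 ± 0.28 (SD, n = 3) in fed pools, -0.45 ± 0.14 after 12 h, -1.001 ± 0.35 after 24 h and -2.65 ± 0.14 after 72 h. Against Cd79a the difference went from -0.17 ± 0.37 when fed to -0.96 ± 0.30, -0.96 ± 0.29 and -3.27 ± 0.18. Against Pou2af1 it went from -0.11 ± 0.29 to -0.95 ± 0.77, -1.10 ± 0.15 and -2.84 ± 0.22. These differences show unequal change between probes on the same arrays, and do not say which probe moved. Igj was also far brighter than the other members. Its mean log2 Cy3 signal in fed pools was 11.55, against 7.67 for Igh-6, 7.37 for Cd79a and 6.80 for Pou2af1. Whether the dimmer signals made the changes of those probes smaller was not tested.

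**Figure D3:**
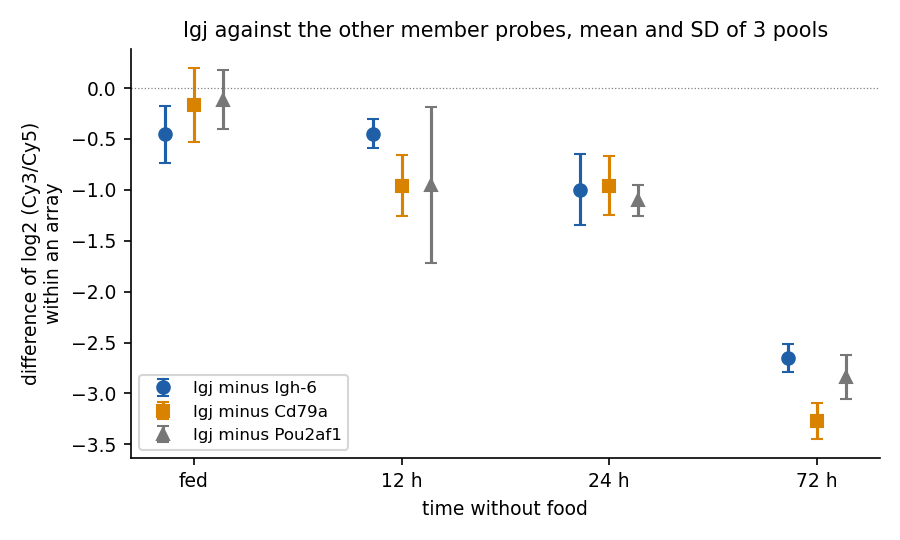
Difference between the log2 ratio of Igj and that of each other member on the same array (vertical axis), by time without food; symbols are means and whiskers SDs of 3 pools. At 72 h the 3 differences lie between -3.27 and -2.65, against -0.46 to -0.11 in fed pools.

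The arrays themselves set the limits of the earlier comparisons. The files of the fed and 72 h arrays had one layout and those of the 12 h and 24 h arrays another, with median Cy5 intensities of 120 to 137 in the first and 384 to 622 in the second. Only 2 comparisons, 72 h with fed and 24 h with 12 h, were made between arrays of the same layout, while time and layout cannot be told apart in the others. Outlier spots made up 0.212% to 1.22% of the spots on 11 arrays and 5.42% on 12 h replicate 1. Among all called probes the share called higher was 37.7% at 24 h and 45.9% at 72 h, and 48.1% and 32.2% when log ratios were only centred on the array median.

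Of the other immunoglobulin chains, 3 probes were on the arrays, and 1 of them was called at each time point: higher at 12 h, lower at 24 h and lower at 72 h. These counts depended on the scaling: with log ratios centred on the array median none was called at 12 or 24 h and all 3 were called lower at 72 h, and after loess normalization 1 was called in each direction at 12 h and 2 were called lower at 72 h. Their median log2 change was -0.26, -0.17 and -0.48, against -0.02, 0.02 and 0.01 over all probes. Igk-V, a probe of the kappa light chain variable region, had ratios of -0.03, -0.52 and -1.15 in fed pools, 0.77, 0.67 and 2.01 after 12 h, -0.13, 0.14 and -0.12 after 24 h, and -1.89, -1.61 and -1.97 after 72 h. All pools at 12 h lay above the fed pools, a position whose share over all probes was not counted. All pools at 72 h lay below the fed pools, as did those of 20.2% of all probes.

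At 72 h Igk-V was 2.39-fold below fed (log2 -1.26 ± 0.32, adjusted p = 0.0221), a call lost without fed replicate 1, fed replicate 2, 72 h replicate 1 or 72 h replicate 3 (changes of -1.55 to -0.99 over the arrays left out). Its 12 h ratio was 3.29-fold above fed (log2 1.72 ± 0.32, adjusted p = 0.00751), but its Cy5 reference changed by -1.09 on those arrays and its Cy3 signal by 0.62, which did not pass in Cy3 alone, nor did the ratio after median centring. Igl-V1, a lambda light chain, differed from fed by -0.26 ± 0.20, -0.17 ± 0.20 and -0.45 ± 0.20 at 12, 24 and 72 h (adjusted p = 0.403, 0.622 and 0.175). Igk-V28 was 1.60-fold lower at 24 h (log2 -0.67 ± 0.16, adjusted p = 0.021, lost in 4 of 12 leave-outs and in Cy3 alone) and was well above background in Cy3 on at most 2 of the 3 arrays of any group.

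Genes of the B cell receptor and surface were represented by 15 further genes, of which 1 was called higher and 1 lower at 12 h, none in either direction at 24 h by limma (2 were lower at an unadjusted p under 0.05, as were 14.6% of all probes), and 3 were called lower and none higher at 72 h. After loess normalization 2 were called lower at 24 h and 5 at 72 h, and with log ratios centred on the array median 3 were called lower at 12 h, 3 at 24 h and 6 at 72 h. Of all probes, 4.82%, 3.82% and 4.85% were called higher at the 3 time points, and 6.00%, 6.30% and 5.71% lower. Loess normalization called 1227 of 20278, 2391 of 20278 and 1803 of 20272 probes lower, and median centring 1843, 2024 and 1922. The probes they called higher were 1068, 1607 and 1588 (loess) and 1192, 1874 and 913 (median centring). These shares and counts over all probes stand beside the counts of every list here. The median change of the 15 was -0.06, -0.14 and -0.25, and at 12 h it was 0.05 after loess normalization. Ms4a1, which encodes the B cell surface protein CD20, was 1.73-fold lower at 72 h (log2 -0.79 ± 0.19, adjusted p = 0.0146), a call lost without fed replicate 2 or 72 h replicate 2 (-0.74 and -0.64). Plcg2, filed as LOC234779, the phospholipase below the receptor, was 1.45-fold lower (log2 -0.54 ± 0.16, adjusted p = 0.0457), and Cd81, a partner of the B cell coreceptor that many other cells also make, 1.57-fold lower (log2 -0.65 ± 0.20, adjusted p = 0.0487). The calls of Plcg2 and Cd81 were each lost in 10 of 12 leave-outs and in the Cy3 channel alone. Ms4a1 and Plcg2 were also dim at 72 h, with log2 Cy3 signals of 5.98 to 6.65 and 6.19 to 6.39.

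The gene called higher at 12 h in that list, filed as Ly64, is Muc13 in the annotation, an epithelial mucin and no B cell gene (log2 0.72, adjusted p = 0.0221), and turned to -0.16 after median centring. Igbp1, which encodes a phosphatase-binding protein, was called lower at 12 h (log2 -0.83 ± 0.19, adjusted p = 0.0154, lost in 2 of 12 leave-outs), with a Cy5 reference higher by 0.86 and a Cy3 signal higher by 0.03. The kinase gene Lyn differed from fed by -0.92 at 72 h by its brighter probe (adjusted p = 0.115) and by 0.05 by the other one (adjusted p = 0.909). Cd79b and Pigr were not analysed here.

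Transcription factors of the B and plasma cell lineage moved both ways. Of 20 genes, 1 of which, filed as Tcf3, is Tcf7l1 in the annotation, 2 were called higher and 2 lower at 72 h, and the same counts were called at 24 h. At 12 h 3 were called higher and none lower, or 2 higher and 3 lower with log ratios centred on the array median. The shares over all probes were 4.82%, 3.82% and 4.85% higher at 12, 24 and 72 h, and 6.00%, 6.30% and 5.71% lower. Nfkb1, a subunit of NF-κB, was 1.88-fold lower at 72 h (log2 -0.91 ± 0.20, adjusted p = 0.0101, lost without 72 h replicate 1, where it was -0.84). Irf8, filed as Icsbp, a factor of B and myeloid cells, was 1.86-fold lower at 24 h (log2 -0.90 ± 0.19, adjusted p = 0.0138) and 1.73-fold lower at 72 h (log2 -0.79 ± 0.19, adjusted p = 0.0186), calls lost in 1 and 4 of 12 leave-outs.

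Bach2, a repressor that holds B cells back from the plasma cell state, was 2.06-, 1.78- and 1.83-fold higher at 12, 24 and 72 h (adjusted p = 0.0159, 0.0374 and 0.0294), with a Cy5 reference that was higher by 0.96 and 2.24 on the 12 h and 24 h arrays and by 0.07 on the 72 h arrays. Foxo1, a factor that is active when insulin signalling is low, rose by 0.97 ± 0.23 at 24 h (1.95-fold, adjusted p = 0.0197) and by 0.85 ± 0.23 at 72 h (1.80-fold, adjusted p = 0.0311). These calls were lost in 2 (Bach2, 12 h) to 6 (Bach2, 24 h) of 12 leave-outs. In the Cy3 channel alone the 72 h calls of Nfkb1, Irf8, Bach2 and Foxo1 and the 24 h call of Foxo1 were lost. Xbp1, the factor that drives the secretory programme of plasma cells, was one of the genes called higher at 12 h, but it had a value on 1 array only there, with a ratio of 3.33 and a log2 reference signal of 6.84, because its spots on the other 12 h arrays were outliers. In fed pools its ratio was 0.17, 0.33 and -2.05, with reference signals of 10.03 to 10.20. Xbp1 differed from fed by 0.51 ± 0.47 at 24 h (adjusted p = 0.517) and by 0.38 ± 0.47 at 72 h (adjusted p = 0.673).

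Among 25 genes of folding and secretion in the endoplasmic reticulum, 4 were called lower and 2 higher at 72 h, with a median change of -0.30. The shares over all probes in that comparison were 5.71% lower and 4.85% higher. At 12 h 1 was called in each direction (1 higher and 4 lower after median centring) and at 24 h 1 was called lower (2 after loess normalization). Pdia4, a disulfide isomerase filed as Cai, had ratios of 0.11, 0.09 and 0.52 in fed pools, 0.04, 0.25 and 0.07 after 12 h, -0.19, 0.01 and -0.02 after 24 h, and -1.30, -0.97 and -0.999 after 72 h. It was 2.51-fold lower at 72 h (log2 -1.33 ± 0.17, adjusted p = 0.000354). The 72 h pools lay below every other pool, a position whose share over all probes was not counted.

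Creld2, filed as 5730592L21Rik, was 2.88-fold lower (log2 -1.53 ± 0.23, adjusted p = 0.0013), the cochaperone Dnajb9 2.01-fold lower (log2 -1.005 ± 0.20, adjusted p = 0.0056) and Edem1, which sends misfolded glycoproteins to degradation, 1.93-fold lower (log2 -0.95 ± 0.21, adjusted p = 0.0104). The calls of Pdia4, Creld2 and Dnajb9 at 72 h held without each array in turn, and that of Edem1 was lost without 72 h replicate 1 (-0.90). In the other direction, the lectin chaperone Canx was higher by 0.73 (adjusted p = 0.0398), a call lost in 7 of 12 leave-outs, and Fkbp11, filed as 1110002O23Rik, was 6.94-fold higher (log2 2.79 ± 0.61, adjusted p = 0.00941), with a change of -0.96 in its reference. The fed pools of Fkbp11 had ratios of 0.94, 1.94 and -1.75, and without fed replicate 3 the change was 1.73, which passed. In the Cy3 channel alone the 72 h calls of Fkbp11, Dnajb9 and Edem1 were lost. These genes are used by every secreting cell of the intestine, and their source was not tested.

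In the list of IgA transport, homing and survival 1 of 11 genes was called lower and 1 higher at 72 h, against 5.71% and 4.85% of all probes. Tnfsf13b, which encodes the B cell survival factor BAFF, was 2.00-fold lower (log2 -0.9995 ± 0.19, adjusted p = 0.00399), and Itgb7, the beta chain of the integrin that directs lymphocytes to the gut, was 5.89-fold higher (log2 2.56 ± 0.42, adjusted p = 0.00185). Both calls held without each array in turn. At 12 h the chemokine gene Cxcl12 changed by -0.61 ± 0.17 (adjusted p = 0.0336), a call lost in 5 of 12 leave-outs and in 7 of 13 alternatives, loess normalization, median centring and Cy3 alone among them. Fcgrt, the neonatal Fc receptor, was higher by 1.70 ± 0.34 at 12 h (adjusted p = 0.0118), from only 2 arrays with a value, with a change of -1.72 in its reference and of -0.02 in Cy3. This call was lost without 12 h replicate 3 (0.96, with the lone array left taken to vary like the other groups), without fed replicate 3 (1.46) and after median centring. Sdc1, which encodes the plasma cell surface protein CD138 and is also made by epithelium, differed from fed by 0.35 at 72 h (adjusted p = 0.606), by the brighter of its 2 probes. The fed pools of that probe read 0.40, 0.28 and -1.06 and the 72 h pools 0.00, 0.40 and 0.27, so the difference rests on fed replicate 3.

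**Figure D4:**
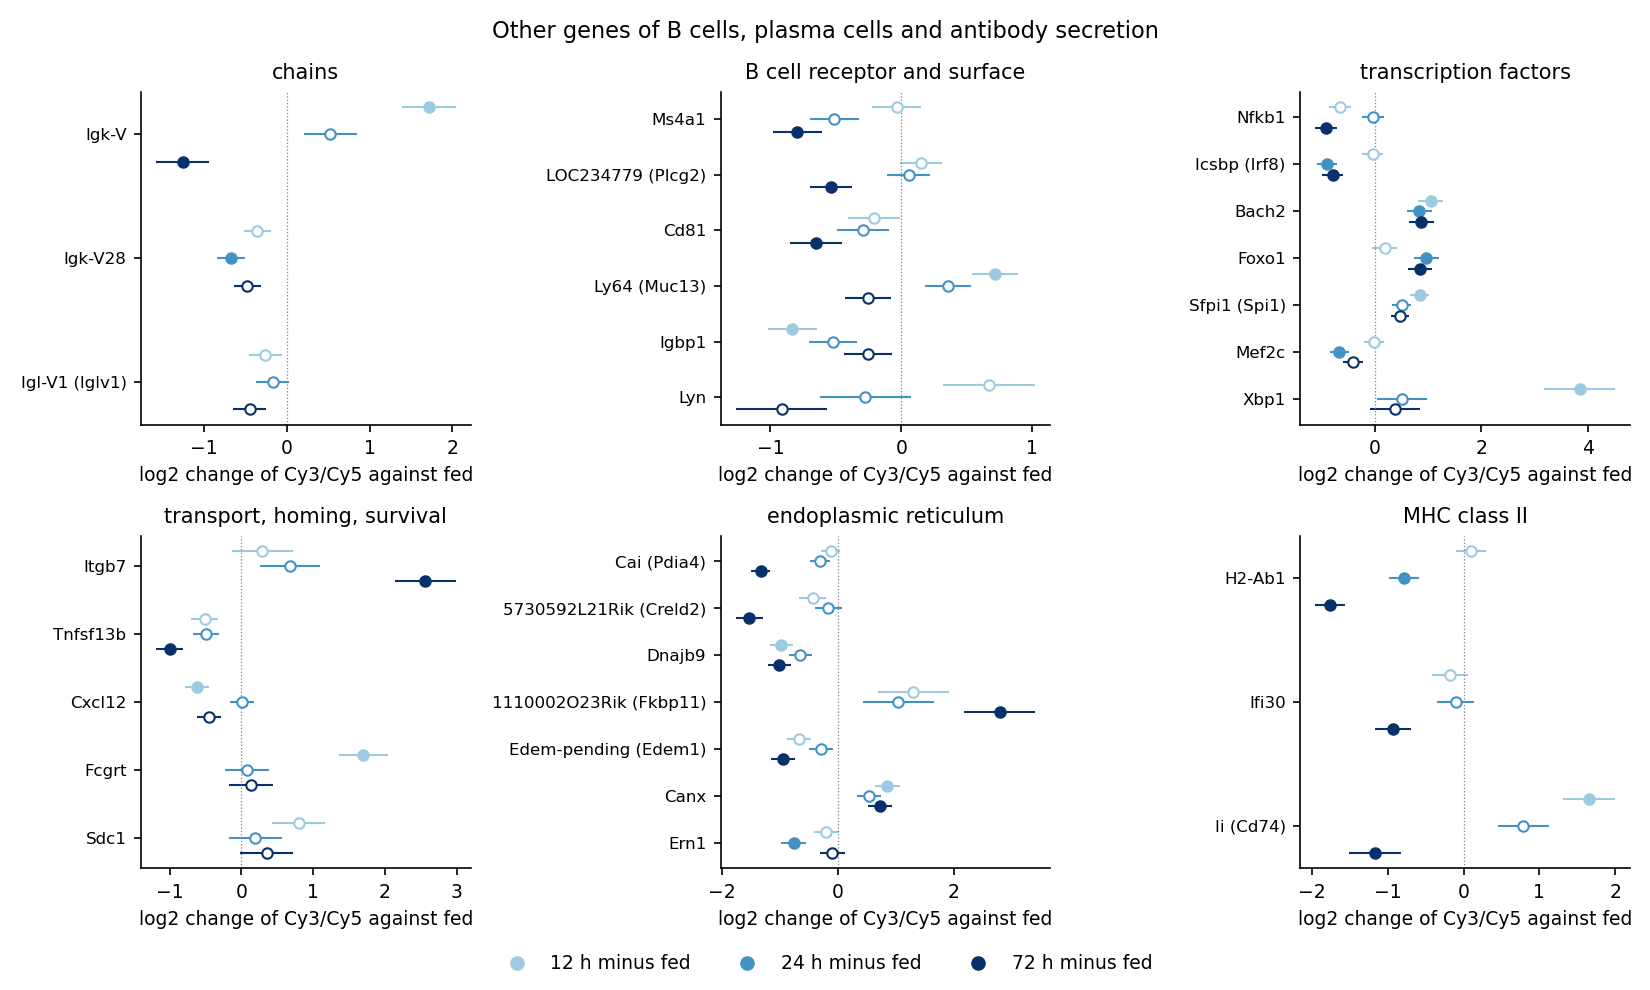
Log2 change of the ratio against fed (horizontal axes) at 12, 24 and 72 h for the other named genes, in 6 groups, with SEs as bars; filled symbols passed the test (adjusted p under 0.05) and open ones did not. At 72 h the filled symbols of Igk-V, Ms4a1, Pdia4, Creld2 and H2-Ab1 lie left of 0, those of Itgb7, Fkbp11 and Bach2 right of it.

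Genes of antigen presentation, which B cells share with macrophages, dendritic cells and enterocytes, were called lower in 3 of 6 cases at 72 h and higher in none. The shares over all probes were 5.71% lower and 4.85% higher. H2-Ab1, a chain of the MHC class II molecule, was 3.39-fold lower (log2 -1.76 ± 0.20, adjusted p = 0.000174), with ratios of -2.11, -1.83 and -2.09 at 72 h against -0.14, -0.52 and -0.08 in fed pools. It was also called lower at 24 h, a call lost in 4 of 12 leave-outs. The invariant chain Cd74, filed as Ii, was higher by 1.66 ± 0.34 at 12 h (3.15-fold, adjusted p = 0.0111), with a change of -0.75 in its reference and of 0.91 in Cy3. This call was lost after median centring, with only the 2 groups fitted, and without fed replicate 3. At 72 h Cd74 was 2.25-fold lower (log2 -1.17 ± 0.34, adjusted p = 0.0398), a call that was lost in 8 of 12 leave-outs and after loess normalization. Ifi30, a thiol reductase of the same pathway, was 1.90-fold lower at 72 h (log2 -0.93 ± 0.24, adjusted p = 0.0239), a call lost in 3 of 12 leave-outs and in the Cy3 channel alone.

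Markers of other cells in the intestinal wall were read on the same arrays. At 72 h 5.71% of all probes were called lower and 4.85% higher. Of 20 genes of leukocytes in general, 2 were called lower and 1 higher at 72 h, with a mean ratio over the list of -0.13 to -0.08 on the fed arrays and -0.24 to -0.12 on the 72 h arrays. Cd53 was 2.02-fold lower at 72 h (adjusted p = 0.00179) and the leukocyte common antigen Ptprc 1.62-fold lower (adjusted p = 0.0457, lost in 8 of 12 leave-outs), while its partner Ptprcap was 3.70-fold higher (adjusted p = 0.00156). Of 10 T cell genes, 1 was called lower at 72 h, Cd3z (log2 -0.59, adjusted p = 0.0221, lost in 5 of 12 leave-outs), and Cd3e differed by -0.06 (adjusted p = 0.871). Of 10 myeloid genes, 1 was called lower, Ccl9 (log2 -0.73, adjusted p = 0.018, lost in 4 of 12 leave-outs). After median centring 2 were called lower in the T cell list and 2 in the myeloid list. In the Cy3 channel alone the 72 h calls of Ptprc and Ccl9 were lost. Cd53, Ptprc and Cd3z were dim at 72 h, with log2 Cy3 signals of 6.55 to 6.62, 6.11 to 7.05 and 6.29 to 6.74.

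The list of B cell receptor and surface genes had a mean ratio of 0.00 to 0.09 on the fed arrays and -0.31 to -0.22 on the 72 h arrays. This lower level was not particular to that list. The myeloid list ranged from -0.11 to 0.06 when fed and from -0.36 to -0.23 at 72 h. The MHC class II list ranged from -0.40 to -0.13 when fed and from -0.87 to -0.76 at 72 h. For T cells the range was 0.01 to 0.10 when fed and -0.20 to -0.005 at 72 h. For enterocytes the range was -0.41 to 0.09 when fed and -0.23 to -0.15 at 72 h, with 3 of 9 genes called lower (5 after median centring). For smooth muscle it was -0.35 to -0.005 when fed and -0.27 to 0.04 at 72 h, with 2 of 10 genes called higher and 1 lower (1 higher and 2 lower after median centring). At 12 h the smooth muscle range was 0.42 to 1.08, with 5 of 10 genes called higher, but 1 when log ratios were centred on the array median. The share of all probes called higher at 12 h was 4.82%. Cpa1, a gene of the exocrine pancreas, ranged from -1.63 to 0.77 in fed pools, and it and the 2 adipose genes were called in no comparison with fed. The part of these cells in the members' changes was not tested.

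The probes whose ratio followed each member most closely were named by Pearson correlation over the 12 arrays, as a description, since the arrays share the reference and fall into 4 time points. For Igj these were Pdia4 (r = 0.97), the dynein light chain Dynll1, filed as Dnclc1 (0.97), B2m (0.96), which encodes the light chain of MHC class I, Wbp1 (0.96) and Ap2m1 (0.96). For Igh-6 they were Extl3 (0.98), Tmem41b, filed as D7Ertd743e (0.96), Thnsl2, filed as LOC232078 (0.95), Dgka (0.94) and Ftl1 (0.94). For Pou2af1 they were Cdc42ep2 (0.97), Cd74 (0.96), Irf3 (0.96), Runx1t1, filed as Cbfa2t1h (0.95) and Ackr4, filed as Ccrl1 (0.95). For Cd79a they were D7Wsu87e (0.89), Knstrn, filed as D2Ertd750e (0.89), Nap1l1 (0.84), Ube2j1 (0.82) and Nos2 (0.79). Among the members, Igj and Igh-6 were the closest pair (r = 0.90), followed by Igj with Pou2af1 (0.68), and Igj with Cd79a reached 0.42. Ranked by likeness to Igj among 18108 probes, Igh-6 came 60th, Pou2af1 868th and Cd79a 2994th. The 72 h pools, which bore on the choice of the members, are part of these correlations, so nothing is read from likeness between members.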

How the data were processed

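RNA of 12 pools of small intestine, 3 per time point, was measured on Agilent 2-colour arrays. The authors scanned the arrays with Feature Extraction 6.1.1 and deposited, per spot, median foreground and background intensities that were neither corrected nor normalized, with flags for outlier, saturated and dim spots. The authors' deposited files also hold a log10 ratio of Cy5 over Cy3 after background subtraction and dye normalization, and a value table with its sign turned, both handled as a score because in some cells the decimal point was misplaced (275 cells scaled back, 96 left out).

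From the intensities, background was corrected with normexp (offset 50), the 24 channels were quantile normalized together, outlier spots were left out, spots of a probe were averaged and log2(Cy3/Cy5) was taken. Of 21446 spots per array, 1075 controls and 91 spots of retired probes were left out, which left 20280 probes. Group means were fitted over the 12 arrays with limma 3.58.1 (R 4.3.3), whose moderated test took the place of the study's analysis of variance, with Benjamini-Hochberg adjustment over all probes and a threshold of 0.05. The pools come from different mice, which the labels number within each time point. Precision is limited by the 3 arrays per group. Python 3.11.15 was used for the lists, and the procedure was tested on simulated data.

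The member genes, the gene lists and the tests were chosen with earlier results of these data known. A list gene counted once, by its brightest probe, without the members. Genes eligible to be named were the members, the list genes called at any time point (at most 8 per list by the lowest adjusted p at 72 h), and a few genes fixed by name. The 5 probes with a gene symbol that were most correlated with each member were also named. Not every called list gene is described: Sfpi1 (called higher at 12 h), Mef2c (lower at 24 h) and the enterocyte and smooth muscle genes are among those left out. Gene names are those of the files or, by gene number or accession, of RefSeq. Alternatives were other background corrections, normalizations, filters, channels and models, and each array left out.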

Additional observations from a re-analysis of the deposited data

How the results depend on the processing

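The 72 h change of Igj kept its direction in all 13 alternatives run and without each array in turn (log2 -3.64 to -2.83, and -3.35 to -3.04), and so did that of Igh-6 (-1.52 to -0.68, and -1.08 to -0.84). The software's log ratio and the deposited value table differ in sign, so they are not separate checks. The software's log ratios of Igj on 72 h replicates 1 and 3, filed as 11.187 and 103.945, were among the cells scaled back. With log ratios centred on the array median, the 12 h changes of Igj (-1.42) and Igh-6 (-0.60) passed the test, Cd79a at 24 h turned to -0.16, Igj at 24 h against 12 h turned to 0.0938, and the probe filed as Ly64 turned to -0.16 at 12 h. In the Cy3 channel alone the 12 h changes of Igj (0.0756) and Igh-6 (0.32), the 24 h changes of Cd79a (-0.0611) and Pou2af1 (-0.0271), and Igh-6 at 24 h against 12 h (-0.78) changed sign, as did Igbp1 (0.0263) and Fcgrt (-0.0201) at 12 h and Ern1 at 24 h (0.0491), and Igj at 24 h (-0.41) no longer passed. Directly against the reference, Igj at 12 h was -0.68 and passed, Cd79a at 24 h was -0.11, and Pou2af1 at 72 h was -0.63. The 24 h change of Igj did not pass without background correction (-0.75), with plain subtraction (-0.78) or with a trended robust variance (-0.79). Pou2af1 at 72 h was -0.91 by the software's log ratio and by the deposited value table, and -0.46 with a smaller error when only its 2 groups were fitted. The causes were not tested, except that the fit of 2 groups uses fewer samples.

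Without each array in turn, Igj ranged from -0.62 to -0.20 at 12 h and -0.95 to -0.61 at 24 h, Igh-6 from -0.55 to -0.27 at 12 h and -0.29 to -0.20 at 24 h, Cd79a from 0.26 to 0.63, -0.0409 to 0.052 and -0.13 to -0.03 at 12, 24 and 72 h, and Pou2af1 from 0.22 to 0.56, 0.11 to 0.29 and -0.53 to -0.41. Same-numbered pools did not deviate together (correlation of their deviations -0.286 to 0.128 over 18 pairs). With a replicate block, Igj at 24 h was -0.79 (adjusted p = 0.0785) and did not pass, and no other call of a member changed. For the list genes named, 724 of 883 values under the alternatives and 595 of 812 without an array kept their call, and the others lost it or, in the 4 cases given above, changed sign. A setting chosen after seeing the data, the list counts without 12 h replicate 1, raised the immunoglobulin chains called lower at 72 h from 1 to 2, and at 12 h the transcription factors called higher from 3 to 5 and the endoplasmic reticulum genes from 1 to 3 in each direction, while all probes called went from 978 to 2131 higher and from 1217 to 2478 lower. Over all probes, loess called 2391 lower at 24 h (1277 in the main analysis) and 1803 at 72 h (1157), and centring on the median 1843, 2024 and 1922 at 12, 24 and 72 h. With every probe counted in place of the brightest, 1 gene of IgA transport was called lower at 24 h and 2 leukocyte probes higher at 72 h. A block for slide or scan date was not run, because the files used here give neither. The dimmest member, Pou2af1, is limited by signal over background.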
